A study of Mus musculus with 12 samples.

Results

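The comparison described here was the response of Siah2 knockout epididymal fat to a high fat diet. Its members were the 3 arrays titled Siah2KO_HFD and the 3 titled Siah2KO_LFD, 6 of the 12 arrays of the series, and they were chosen by these titles. All mice were C57BL/6J males of 20 weeks with food of 10% or 45% fat since 4 weeks of age, and both knockout groups carried a global knockout of Siah2. The low fat knockout group (Siah2KO_LFD) held 10 mice and the high fat knockout group (Siah2KO_HFD) 8 mice. RNA of 2 to 4 mice, in equal amounts, was pooled per array, so each array was a pool and its spread was not that of single animals. The other 6 arrays, from wild type mice on the same diets, shared in the estimate of the spread and served for comparison. An Illumina mouse bead array gave 1 normalized intensity per probe and pool, and each array detected between 13389 and 15037 of 25697 probes. In fat pooled from whole tissue, fewer cells of a type and less RNA per cell cannot be told apart.

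Epididymal fat is the visceral depot that lies against the epididymis in the male mouse. In obesity its adipocytes enlarge, macrophages gather around dying adipocytes and take up their lipid, and the matrix between cells thickens. Siah2 encodes a ubiquitin ligase that marks proteins for degradation by the proteasome and is known for its part in the cellular response to low oxygen.

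The targeted gene was examined first. Siah2, on chromosome 3, had normalized intensities of 55.3, 68.2 and 45.0 on the high fat knockout arrays and of 102, 62.2 and 63.4 on the low fat ones. The array labelled Siah2KO_LFD replicate 1 lay within the wild type range of 78.6 to 121, and the other 5 knockout arrays lay below that range. Knockout against wild type, the log2 difference was -0.37, with an exact two-sided permutation p of 0.0108 over the 12 arrays. Whether this Siah2 probe lies in the deleted sequence was not looked up here. The adipocyte markers Adipoq, the adipocyte hormone adiponectin, and Plin4, a coat protein of lipid droplets, were bright on all knockout arrays, at 28890 to 37111 for Adipoq and at 36511 to 40355 for Plin4. The p-values below measure the spread between pools, and the number of arrays limits their precision.

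Replicate 2 of both knockout groups stood apart from its own group. Over the log2 values of all genes, replicate 2 of the high fat group correlated with its own group at r = 0.951 and 0.946 and with the low fat replicates 1 and 3 at r = 0.975 and 0.977. Replicate 2 of the low fat group correlated with its own group at r = 0.943 and 0.963 and with the high fat replicates 1 and 3 at r = 0.976 and 0.974. Replicates 1 and 3 of a group correlated with each other at r = 0.981 on high fat and at r = 0.983 on low fat. Transcripts of the epididymis were prominent among the deviating genes. In 196 genes replicate 2 of the high fat group lay more than 2 log2 units above the mean of the other 2 arrays, in 248 genes replicate 2 of the low fat group lay more than 2 below, and 177 genes did both. The 100 genes with the largest rises in wild type mice had mean log2 levels of 9.66, 9.80 and 9.99 on the high fat knockout arrays. On the low fat ones the levels were 7.92, 8.57 and 7.80. For these genes replicate 2 fell on its labelled side in both groups, with replicate 2 the highest low fat array. Genes that fell in wild type were not examined in this way. Counts over all genes, and those of most gene lists, are therefore given with all 6 knockout arrays and again without replicate 2 of both groups, where 2 pools a side remained.

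With all arrays, 511 of 11705 genes tested passed an adjusted p of 0.05 (limma, a linear model across all genes, with Benjamini-Hochberg adjustment), which is 4.37% of them. Of these, 415 genes (3.55%) were higher and 96 (0.820%) were lower on the high fat diet. Without replicate 2 of both groups the model called 1585 genes (13.5%), 891 of them higher (7.61%) and 694 lower (5.93%). In that fit the epididymis and testis list had mean log2 levels of 6.09 and 6.42 on high fat and of 9.85 and 10.51 on low fat. Diet and the content of epididymal transcripts therefore cannot be told apart without replicate 2. The list counts below are to be read beside these shares over all genes, which were larger without replicate 2. The calls shared between the fits numbered 450, all in the same direction, and the 61 genes called only with all arrays kept their sign without replicate 2. A further 1135 genes were called only without replicate 2, and 637 of these were lower on high fat. Of the 637, 540 had replicate 2 of the high fat group nearer the low fat level and replicate 2 of the low fat group nearer the high fat level. Of the 498 that were higher, 126 did. These genes were chosen by a call that is lost with replicate 2 present, so deviation of replicate 2 is partly built into the choice. The median change over all genes was -0.01 log2 with all arrays and 0.03 without replicate 2. Without regard to any model, all 3 high fat arrays lay above all 3 low fat arrays in 1428 genes (12.2%) and below them in 1150 (9.82%), together 22.0% of genes. An exact permutation test of 3 pools against 3 cannot reach a p under 0.1, so single genes rest on limma. The number of calls also moved with single pools: it was 138 without replicate 3 of the high fat group, 140 without low fat replicate 3, 177 without low fat replicate 1, 256 without high fat replicate 1 and 845 without low fat replicate 2.

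**Figure D1:**
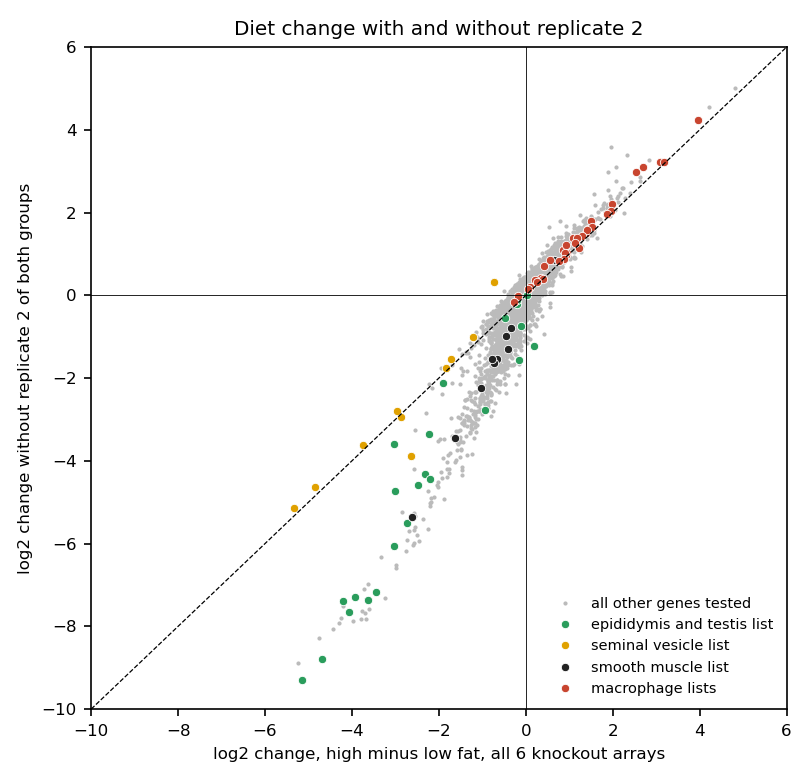
Log2 change of each of the 11705 genes, high minus low fat in Siah2 knockout, with all 6 arrays (x axis) and without replicate 2 of both groups (y axis). Each point is a gene, and the dashed line marks equal changes. Macrophage genes (red) lie close to the line, epididymis and testis genes (green) and most smooth muscle genes (black) lie below it, and most seminal vesicle genes (yellow) lie near it.

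The 15 largest rises are described first, taken among the called genes whose groups did not overlap, so the lack of overlap is part of their choice. They include Mmp12, Gpnmb, Trem2, Cd68 and Spp1, genes known from macrophages. Tph2, which encodes the neuronal form of tryptophan hydroxylase, the rate-limiting enzyme of serotonin synthesis, had intensities of 2724, 6114 and 5657 on high fat and of 43.0, 244 and 113 on low fat. It rose by 4.81 ± 0.46 log2 (SE, 3 pools a side, limma adjusted p = 0.000904) and by 5.02 without replicate 2. Ubd, a ubiquitin-like protein modifier also called FAT10, measured 3714, 5334 and 5786 against 130, 422 and 171 and rose by 4.21 ± 0.34 log2 (limma adjusted p = 0.000237). In both genes the lowest high fat pool was replicate 1 and the highest low fat pool was replicate 2, and the groups lay far apart. Mmp12, the macrophage elastase, measured 2739, 5992 and 6883 against 170, 520 and 194, a rise of 3.97 ± 0.43 log2 (limma adjusted p = 0.00204).

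Gpnmb, a membrane glycoprotein of lipid-laden macrophages, was at 7360, 12860 and 14886 on high fat and at 1014, 1459 and 1163 on low fat. Trem2, a lipid-sensing receptor of macrophages, was at 932, 1633 and 1678 against 96.3, 184 and 84.2. These 2 genes rose by 3.17 and 3.09 log2, with standard errors of 0.24 and 0.26. Replicate 1 was again the lowest high fat pool for both. Rgs1, which dampens G protein signalling in leukocytes, rose by 3.06 log2, Slc5a7, the high-affinity choline transporter, by 2.83, and Cd68, a lysosomal glycoprotein of macrophages, by 2.69. The list went on with the acute phase protein Saa3 (2.63), the lysosomal peptide transporter Slc15a3 (2.63), Spp1, the secreted matrix protein osteopontin (2.52), the leukocyte receptor Cd84 (2.43), the stress-induced transcription factor Atf3 (2.40), the interleukin 7 receptor Il7r (2.27) and the leukocyte integrin Itgad (2.25). Itgad was below the detection floor of 27.9 on all low fat arrays, at -2.71, 3.05 and 3.63, against 99.2, 316 and 217 on high fat, so its rise was at least 6.80-fold.

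**Figure D2:**
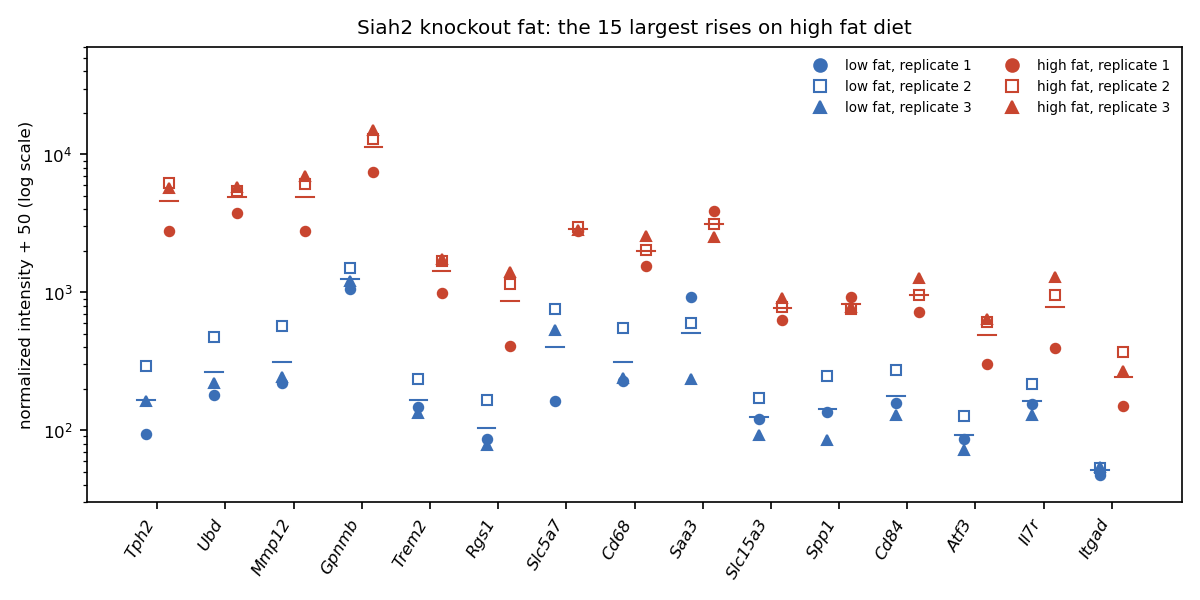
Normalized intensity plus 50 (log axis) of the 15 genes with the largest called rises, on the 3 low fat (blue) and 3 high fat (red) Siah2 knockout arrays. Circles, open squares and triangles are replicates 1, 2 and 3, and bars are group means on the log2 scale. The genes were chosen among those whose groups do not overlap, and replicate 2 (open square) is the highest low fat array for all but Saa3 and Itgad.

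All 15 kept their call without replicate 2 of both groups, at changes between 1.99 and 5.02 log2. They also kept it when any 1 knockout array was left out, except Slc5a7 without high fat replicate 3. When the mean level of epididymis and testis genes entered the model as a covariate, 8 of the 15 kept their call, and Cd68, Cd84, Il7r, Rgs1, Saa3, Slc5a7 and Spp1 did not. With that covariate 19 genes were called in all, 12 of them higher.

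General macrophage markers rose together. Of 19 such genes tested, 15 were called higher and none lower, with a median change of 1.08 log2 against -0.01 over all genes, and 15 were called without replicate 2, with a median of 1.37. The count was between 9 and 15 when single knockout arrays were left out, lowest without low fat replicate 3. The mean log2 level of the list was 10.09, 10.19 and 10.30 on the high fat arrays and 8.91, 9.38 and 8.80 on the low fat ones, so the groups did not overlap. Its summed intensity ran from 76004 to 86312 on high fat and from 32023 to 47303 on low fat. Cd68 measured 1512, 1969 and 2492 against 178, 502 and 189. Tyrobp, a signalling adaptor of myeloid receptors, measured 1105, 1459 and 1480 against 257, 460 and 222. Ctss, the lysosomal protease cathepsin S, measured 2453, 2989 and 2976 against 695, 846 and 548. These 3 genes rose by 2.69, 1.99 and 1.95 log2. Cd53, a tetraspanin of leukocytes, and Fcer1g, the common chain of Fc receptors, rose by 1.53 and 1.49. Adgre1, which encodes the mouse macrophage antigen F4/80, measured 3673, 4534 and 4686 against 1382, 2095 and 1300 and rose by 1.43 ± 0.23 log2 (limma adjusted p = 0.00857). Members not called included Itgam (0.22), Cybb (0.35) and Aif1 (0.41).

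Macrophages that gather around dying adipocytes are known for a set of genes for lipid uptake and lysosomal breakdown. Of 18 genes of this lipid-associated set, 11 were called higher, none lower, and the median was 1.0 log2. Without replicate 2 the count was 12. Beside Mmp12, Gpnmb, Trem2 and Spp1, the bone and macrophage protease Ctsk measured 1928, 2484 and 2534 against 472, 744 and 595 and rose by 1.87 ± 0.22 log2 (limma adjusted p = 0.00296). Spp1 measured 873, 703 and 733 against 85.3, 198 and 35.5. Itgax, which encodes the integrin CD11c, rose by 1.38, the lysosomal lipase Lipa by 1.21, Lgals3, the lectin galectin-3, by 1.19, Plin2, a coat protein of lipid droplets, by 1.13, Cd9 by 0.87 and Dcstamp by 0.75. The 7 members not called were Apoe (-0.27), Lpl (-0.18), Ctsb (0.06), Cd36 (0.10), Ctsd (0.20), Cd63 (0.27) and Fabp5 (0.56), of which Fabp5 was called without replicate 2 (0.85).

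Genes of resident or alternatively activated macrophages showed a weaker change. None of 16 was called with all arrays (limma), although 13 had a positive change and the median was 0.51 log2. Without replicate 2, 6 were called higher, with a median of 0.79. Folr2, a folate receptor of resident macrophages, measured 846, 771 and 1064 on high fat and 266, 572 and 203 on low fat, a log2 difference of 1.35 (limma adjusted p = 0.0938) and of 1.82 without replicate 2 (limma adjusted p = 0.0208). Retnla, a secreted marker of alternative activation, measured 12384, 7760 and 15324 against 7081, 10922 and 5907. In this gene the 2 deviating arrays crossed: high fat replicate 2 was below low fat replicate 2.

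Chemokine ligands rose in part. Of 20 tested, 7 rose and none fell, with a median of 0.65 log2, and the count without replicate 2 was 8. Ccl2, which draws monocytes into tissue, measured 256, 277 and 283 on high fat and 9.83, 62.4 and 11.4 on low fat, and it rose by 2.11 ± 0.29 log2 (limma adjusted p = 0.00476). Its close relative Ccl7 measured 1677, 1588 and 1354 against 231, 653 and 295, a rise of 1.96. Ccl9 and Ccl6, 2 ligands of the same gene cluster on chromosome 11, rose by 1.80 and 1.78, and Ccl4 by 1.03. The groups did not overlap in any of these 5 genes, and low fat replicate 2 was the highest low fat pool in each. Without low fat replicate 3 only 2 of the 7 calls were made, without high fat replicate 3 or low fat replicate 1 only 3, and without high fat replicate 1 only 4. The interferon-induced ligands Cxcl9 (-0.29) and Cxcl10 (0.36) were not called.

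Of 20 cytokines and receptors, 4 rose and none fell, and 8 were called without replicate 2. Il1rn, which encodes the antagonist of the interleukin 1 receptor, measured 105, 177 and 252 on high fat and 3.21, 21.5 and -2.31, all below the floor, on low fat, at least 6.02-fold higher. Il7r measured 344, 904 and 1247 against 106, 167 and 77.8. The receptor chains Csf2ra and Csf2rb2, for growth factors of the granulocyte and macrophage lineage, rose by 0.82 and 0.80. Il1b (0.54) was not called. Tnf was below the floor on all 6 arrays and was not called with them. It was still 1 of the 8 calls without replicate 2, at 0.59 (limma adjusted p = 0.043). Csf2ra and Csf2rb2 were called with 1 array left out only when that was low fat replicate 2, which gave 7 calls in the list, and each of the other 5 such fits gave 2.

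Of 16 genes of antigen presentation tested, from both the class I and the class II pathway, 6 were called higher and none lower with all arrays, and the same 6 without replicate 2. H2-DMb1, a chain of the chaperone that loads peptides, measured 1648, 1719 and 1854 against 481, 794 and 445 and rose by 1.56 ± 0.20 log2 (limma adjusted p = 0.00387). Ciita, the transcriptional activator of the class II genes, measured 273, 232 and 310 against 111, 126 and 89.4 and rose by 1.02. Cd74, the invariant chain, rose by 1.0, H2-DMa by 0.95, H2-Eb1 by 0.83 and H2-Ab1 by 0.80. The class II genes H2-Aa (0.46), H2-DMb2 (0.26) and H2-Ob (0.14) were not called, and neither were the class I genes B2m (-0.09), Tap1 (0.19) and H2-K1 (0.56). The count was 3 without high fat replicate 1, high fat replicate 3, low fat replicate 1 or low fat replicate 3.

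Lymphocyte, mast cell and interferon genes showed few calls. Of 15 genes of T, NK and B lymphocytes only Thy1 was called, at 0.64 log2, and Thy1 also marks fibroblasts. The T cell receptor chains Cd3e (-0.07), Cd3d (0.06) and Cd3g (0.26) were not called. None of 7 mast cell genes was called, with a median of 0.06 log2. Of 21 interferon-induced genes only Irf8, a transcription factor of myeloid cells, was called, at 0.96, and the median of the list was 0.08. Without replicate 2, Gbp2 was called as well (0.61), while the lymphocyte list kept 1 call and the mast cell list none. The mast cell gene Hdc, for histidine decarboxylase, measured 1223, 216 and 191 against 150, 309 and 239, with high fat replicate 1 alone above the rest.

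Complement genes rose in part. Of 15 tested, 6 were called higher and none lower, and 9 without replicate 2, against 3.55% and 7.61% called higher over all genes. The 3 chains of C1q, the recognition unit of the classical pathway that tissue macrophages make, rose by 1.52 for C1qb, 1.31 for C1qc and 1.11 for C1qa. C1qb measured 3777, 4157 and 4033 on high fat against 1324, 1994 and 942 on low fat. Serping1, an inhibitor of the first component, rose by 0.81, Cfb, a factor of the alternative pathway, by 0.76 and C3, the central component, by 0.57. Cfd, the adipocyte protein adipsin, was not called, at -0.04. No complement gene was called without high fat replicate 3, and between 1 and 7 were called without other single arrays.

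Lysosomal genes showed fewer calls. Of 26 tested, 5 rose (Ctss, Ctsa, Gusb, Atp6v1b2 and Hexa), and none fell, with a median of 0.19 log2. Ctsa, a protective protein of lysosomal enzymes, measured 3836, 3501 and 4045 against 1700, 2149 and 1209 and rose by 1.18 ± 0.23 log2 (limma adjusted p = 0.0191). Gusb and Hexa, enzymes that break down sugar chains, rose by 0.71 and 0.56, and Atp6v1b2, a subunit of the proton pump, by 0.67. The list gave 3 calls without high fat replicate 3, low fat replicate 1 or low fat replicate 3. Without replicate 2 of both groups it gave 7 calls higher and 3 lower, and the lower ones included Neu1 (-1.09) and Npc2 (-0.60). That fit called 7.61% of all genes higher and 5.93% lower.

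Of 26 collagens and matrix genes, 9 were called higher with all arrays and 19 without replicate 2, none was lower in either fit, and the medians were 0.65 and 0.84 log2. Over all genes 3.55% were called higher with all arrays and 7.61% without replicate 2. Lum, a proteoglycan that organises collagen fibrils, measured 2302, 2496 and 2926 on high fat and 851, 1293 and 570 on low fat and rose by 1.52 ± 0.31 log2 (limma adjusted p = 0.0213). Col1a1, a chain of fibrillar type I collagen, measured 1643, 1553 and 2288 against 698, 838 and 752 and rose by 1.19 ± 0.17 (limma adjusted p = 0.00592). Col6a2 and Col6a1, chains of the type VI collagen that surrounds adipocytes, rose by 1.09 and 0.92, and Col4a2, of the basement membrane, by 0.82. High fat replicate 2 was the lowest high fat pool for Col1a1, Col6a2, Col6a1 and Col4a2, and low fat replicate 2 was the highest low fat pool in all 5 genes, so both deviating pools lay toward the other group. Col1a2 (0.64), the partner chain of Col1a1, and Col3a1 (0.68) were not called in either fit. The count was 1 without high fat replicate 1, high fat replicate 3, low fat replicate 1 or low fat replicate 3, and 14 without low fat replicate 2.

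Among matrix proteases and inhibitors, 5 of 20 rose, and 10 without replicate 2. Timp1, an inhibitor of matrix metalloproteinases, measured 750, 536 and 461 against 69.0, 239 and 71.7, a rise of 1.95 ± 0.37 log2 (limma adjusted p = 0.0157). The metalloproteinases Mmp3 and Mmp2 rose by 1.57 and 0.93, and Adam8, a membrane protease of leukocytes, by 0.99. Timp3 (-0.24) and Timp4 (-0.41) were not called. The count was 3 without high fat replicate 3, low fat replicate 1 or low fat replicate 3, and 10 without low fat replicate 2. Fibroblast and preadipocyte genes gave 1 call of 21, Thy1, with all arrays and 9 without replicate 2, all higher, with medians of 0.36 and 0.65. The shares called higher over all genes were 3.55% and 7.61%. The largest of these changes was in Ccn5, listed on the array as Wisp2, a secreted protein of preadipocytes, at 1257, 1405 and 823 against 198, 725 and 362. It differed by 1.46 log2 with all arrays (limma adjusted p = 0.1) and by 1.74 without replicate 2 (limma adjusted p = 0.0342). Of 16 endothelial genes none was called with all arrays, with a median of 0.17, and only Pecam1 without replicate 2, at 0.72.

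Part of the cell cycle list rose. Of 24 cell cycle genes, 8 were called higher and none lower with all arrays, 9 were called higher without replicate 2, and 23 of the 24 changes were positive, with a median of 0.51 log2. Cdk1, the kinase that drives entry into mitosis and listed on the array as Cdc2a, measured 108, 157 and 190 on high fat and 22.4, 43.5 and 37.5 on low fat and rose by 1.24 ± 0.22 log2 (limma adjusted p = 0.0127). Tk1, a thymidine kinase of S phase, rose by 1.16, the replication helicase subunit Mcm5 by 1.10 and the centromeric histone Cenpa by 1.03. Ccnb1, the mitotic cyclin B1, measured 62.9, 83.0 and 128 against 16.3, 25.7 and 27.6, all below the floor on low fat, at least 3.14-fold higher. Top2a, a topoisomerase that untangles chromosomes before division, measured 61.3, 83.5 and 131 against 22.6, 37.8 and 13.7 and rose by 0.91. High fat replicate 3 was the highest pool for each of Cdk1, Tk1, Ccnb1 and Top2a, and without it 3 of the 24 genes were called. Low fat replicate 1 left out also gave 3 calls, and low fat replicate 3 gave 4.

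Promoters of genes for mitosis are known to carry CCAAT boxes, bound by the factor NF-Y. The 250 bases before the start of 3 cell cycle genes that rose are shown to let the boxes be seen in place, from RefSeq with GRCm38.p6 coordinates, 5′ to 3′ on the strand of the gene, with each CCAAT or its reverse complement ATTGG in capitals. They are Cdk1 at chr10:69352913-69353162 on the minus strand, Ccnb1 at chr13:100786487-100786736 on the minus strand and Top2a at chr11:99024190-99024439 on the minus strand.
Cdk1: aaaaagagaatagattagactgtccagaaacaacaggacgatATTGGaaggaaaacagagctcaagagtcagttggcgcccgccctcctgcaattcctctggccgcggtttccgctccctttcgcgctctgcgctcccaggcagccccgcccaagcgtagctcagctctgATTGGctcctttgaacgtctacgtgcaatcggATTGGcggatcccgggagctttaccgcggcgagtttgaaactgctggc
Ccnb1: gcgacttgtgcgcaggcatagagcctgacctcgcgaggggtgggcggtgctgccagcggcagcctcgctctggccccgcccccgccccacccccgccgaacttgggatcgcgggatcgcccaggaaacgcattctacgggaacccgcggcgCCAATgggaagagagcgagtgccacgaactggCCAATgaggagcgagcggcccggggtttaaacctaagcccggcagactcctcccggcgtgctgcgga
Top2a: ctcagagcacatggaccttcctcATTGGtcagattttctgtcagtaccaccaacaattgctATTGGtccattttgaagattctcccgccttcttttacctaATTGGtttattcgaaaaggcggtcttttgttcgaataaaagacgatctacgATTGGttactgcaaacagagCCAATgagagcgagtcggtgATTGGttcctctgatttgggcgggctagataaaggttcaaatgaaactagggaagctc
The motif occurred 3 times for Cdk1, 2 times for Ccnb1 and 6 times for Top2a. Of the 24 cell cycle genes 21 had a promoter in the table, and 16 of these held the motif in the 250 bases, against 33.8% of all 32851 promoters of the same length. Some genes had more than 1 promoter and counted when any of them held the motif, while the share is of single promoters, so the measures are unlike. A match is a description of letters.

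Adipocyte genes showed a mixed picture. Of 17 genes known to follow fat expansion, 3 rose: Mest, an imprinted gene of enlarging fat, at 10452, 12169 and 14362 against 2938, 6977 and 7241 (1.20 ± 0.30 log2, limma adjusted p = 0.0487), Fgf13 (0.91) and the lipoprotein receptor Vldlr (0.58). All 3 calls were lost without high fat replicate 1, high fat replicate 3, low fat replicate 1 or low fat replicate 3. Low fat replicate 1 was much the lowest pool for Mest. Lep, which encodes leptin, measured 37818, 37482 and 39783 on high fat and 17148, 31898 and 25800 on low fat, near the top of the array's range. It differed by 0.66 log2 (limma adjusted p = 0.0659) with all arrays and by 0.88 without replicate 2 (limma adjusted p = 0.011). In that second fit 5 genes of the list were called higher: Lep, Mest (1.40), Fgf13 (1.23), Vldlr (0.67) and Sfrp5 (1.67). Among 17 adipocyte hormones and secreted proteins, Saa3 and Hp rose. Hp, the plasma protein haptoglobin, measured 34974, 36796 and 32701 against 9082, 20980 and 17559, a rise of 1.21, and its call was lost in each fit without 1 array except that without low fat replicate 2. Adiponectin (Adipoq, -0.07) and resistin (Retn, -0.08) were not called. Without replicate 2 the calls were 5, namely Saa3 (2.76), Hp (1.42), Metrnl (1.08), Angptl4 (0.98) and Lep.

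Of 18 markers of adipocyte identity none was called with all arrays, and the median was -0.13 log2. The mean log2 level of the list was 12.03, 11.66 and 11.95 on high fat and 11.77, 12.19 and 11.98 on low fat, so the groups overlapped, with replicate 2 lowest on high fat and highest on low fat. Pparg, the master regulator of adipocytes, was at -0.10, and the hormone-sensitive lipase Lipe at -0.23. Without replicate 2, Aqp7, a glycerol channel (0.65), and Cebpb, an adipogenic transcription factor (0.83), were called. In the list of lipolysis and lipid droplet genes 1 of 17 was called, Plin2, at 2879, 2656 and 3069 against 1291, 1464 and 1120, and with 1 array left out it was called only without low fat replicate 2. Without replicate 2 of both groups it was again the 1 call of the list.

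Among called genes outside the male tract lists the largest fall was that of Acsm3. This gene, a mitochondrial ligase of medium-chain fatty acids, measured 32.6, 33.7 and 97.8 on high fat and 483, 389 and 401 on low fat and fell by 2.23 ± 0.25 on the log2 scale (limma adjusted p = 0.00266). Cyp2f2, a cytochrome P450, measured 129, 57.9 and 42.1 against 532, 377 and 591 and fell by 2.16. Fam13a, a gene linked to body fat distribution in humans, measured 671, 610 and 614 against 2317, 2177 and 2018 and fell by 1.70. The pools of a group lay close together for Fam13a, and replicate 2 did not deviate. Pck1, which supplies glycerol 3-phosphate for fat storage in adipocytes, measured 1371, 963 and 1507 against 3195, 4190 and 4017 and fell by 1.55 ± 0.32 (limma adjusted p = 0.024). Without replicate 2 its change was -1.29 and not called (limma adjusted p = 0.062). Pon1, a lactonase carried on lipoproteins, fell by 1.50, Tmem79 by 1.32, and 2 genes without a functional name, LOC100043671 and 2010308M01Rik, by 1.47 and 1.38. Without 1 of high fat replicate 3, low fat replicate 1 or low fat replicate 3, Cyp2f2, Elovl6, Pck1 and Pon1 were not called. Pck1 and Pon1 were not called without high fat replicate 1 or 2 either, and Elovl6 was not called without high fat replicate 1. With the epididymal covariate 4 of the 15 largest falls kept their call: Acsm3, LOC100043671, Svs4 and Svs5.

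**Figure D3:**
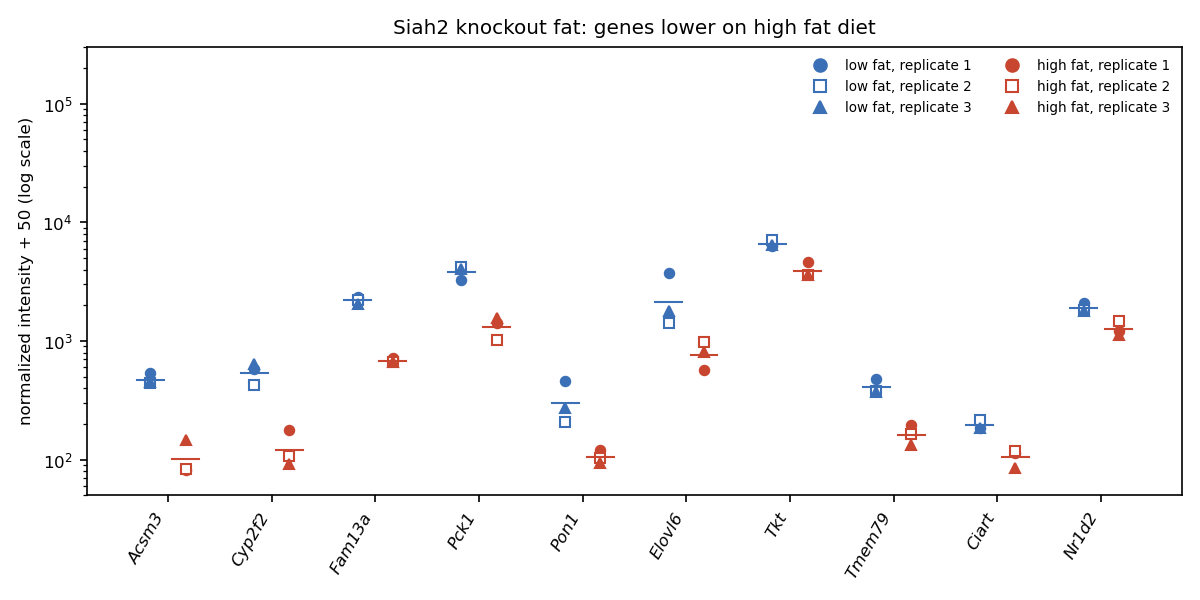
Normalized intensity plus 50 (log axis) of 10 genes called lower on high fat, on the 3 low fat (blue) and 3 high fat (red) Siah2 knockout arrays. Symbols are as for the rises, and bars are group means on the log2 scale. The genes were chosen among those whose groups do not overlap.

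Of 19 genes of fatty acid synthesis tested, 3 fell with all arrays (Elovl6, Tkt and Aacs), none rose, and the median was -0.41 log2. Elovl6, which elongates palmitate to stearate, measured 521, 922 and 758 on high fat and 3706, 1381 and 1728 on low fat and fell by 1.47 ± 0.33 (limma adjusted p = 0.033). Low fat replicate 1 was far above the other low fat pools. Tkt, a transketolase of the pentose phosphate pathway, fell by 0.75, and Aacs, which activates acetoacetate for lipid synthesis, by 0.59. Without replicate 2 the called genes were Elovl6 (-1.93), Fads2 (-1.64), Fads1 (-1.33) and Acly (-0.85), so 1 gene was shared. Fasn, the fatty acid synthase, was not called in either fit, at -0.82 and -0.78. No gene of this list was called without high fat replicate 3, low fat replicate 1 or low fat replicate 3. Of 18 cholesterol synthesis genes 2 rose with all arrays and 4 without replicate 2, with Dhcr7 at 1.38, Insig1 at 1.03 and Sc5d at 0.82. Dhcr7, which performs the last step of cholesterol synthesis, measured 308, 313 and 336 against 94.7, 203 and 90.9 and rose by 1.09 ± 0.20 log2 (limma adjusted p = 0.0153). Insig1, a sterol-regulated brake on this pathway, rose by 0.81. Neither was called without high fat replicate 3, low fat replicate 1 or low fat replicate 3. Of 19 genes of triglyceride synthesis and glycerol supply only Pck1 was called with all arrays. Without replicate 2 Pck1 was not called, Mogat2, an acyltransferase, rose by 1.36 log2 and Acsl4, a long-chain acyl-CoA synthetase, fell by 1.40 (limma adjusted p = 0.013 and 0.0083).

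Mitochondrial lists held few calls. None of 23 genes of fatty acid oxidation was called with all arrays, with a median of -0.03 log2. Of 24 citrate cycle genes Pdha1, a subunit of pyruvate dehydrogenase, fell by 0.46, a call lost in each fit that left out 1 array, and the median was -0.22. Of 32 respiratory chain genes Ndufa5, a subunit of complex I, measured 2262, 2415 and 2212 against 3409, 3012 and 3220 and fell by 0.48 ± 0.09 (limma adjusted p = 0.0164). It was called with 1 array left out only without replicate 2 of either group. In that list 27 of 32 changes were negative, with a median of -0.14. Of 18 genes for the breakdown of branched-chain amino acids, 16 changes were negative, with Ppm1k at -0.63, and none of the 16 was called. The median of that list was -0.30. The 1 called member, Bcat1, the cytosolic transaminase, rose by 0.79, and with 1 array left out it was called only without low fat replicate 2. All high fat arrays lay below all low fat arrays in 8 of these 18 genes. The same held for 6 of the 24 citrate cycle genes, 8 of the 32 respiratory chain genes and 1 of the 23 fatty acid oxidation genes. Over all genes the share was 9.82%. Without replicate 2 the calls in these lists were Etfb (0.52) in fatty acid oxidation, Idh3a (0.45) in the citrate cycle, Ndufa5 and Ndufa1 (-0.54) in the respiratory chain and 1 gene, Bcat1, in the breakdown of branched-chain amino acids. Ribosomal protein genes gave no call among 21 in either fit.

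The circadian clock list leaned lower. Of 14 genes tested, 2 fell, none rose, 12 changes were negative and the median was -0.62 log2. Ciart, a repressor of the clock listed on the array as Gm129, measured 63.8, 69.1 and 35.8 on high fat and 137, 167 and 136 on low fat and fell by 0.90 ± 0.18 (limma adjusted p = 0.0231). Nr1d2, the nuclear receptor REV-ERB beta, measured 1153, 1421 and 1084 against 2024, 1760 and 1755 and fell by 0.59 ± 0.13 (limma adjusted p = 0.0287). Without replicate 2 both were called, and so was Per1, a core repressor of the clock, at -1.06 (limma adjusted p = 0.0307). Per1 measured 653, 699 and 406 against 1148, 948 and 1115, with no overlap, and its change with all arrays was -0.85 (limma adjusted p = 0.0625). Dbp, an output factor of the clock, was at -0.71, and Arntl, which encodes the activator BMAL1, at 0.64, neither called. In wild type mice the median of the list was -0.21. The hour of tissue collection was not used here. No clock gene was called without high fat replicate 1, high fat replicate 3, low fat replicate 1 or low fat replicate 3.

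Many clock genes are driven through E-boxes with the letters CACGTG. The 250 bases before the start of Ciart, which fell in both fits, and of the first of 2 RefSeq starts of Per1 are shown with this motif in capitals. The build is GRCm38.p6, with Ciart at chr3:95882229-95882478 on the minus strand and Per1 at chr11:69098699-69098948 on the plus strand, both 5′ to 3′ along the gene.
Ciart: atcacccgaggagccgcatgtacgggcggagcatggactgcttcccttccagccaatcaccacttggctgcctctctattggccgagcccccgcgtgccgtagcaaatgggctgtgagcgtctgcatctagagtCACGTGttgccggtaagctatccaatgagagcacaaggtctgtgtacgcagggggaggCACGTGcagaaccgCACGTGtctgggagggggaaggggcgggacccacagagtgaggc
Per1: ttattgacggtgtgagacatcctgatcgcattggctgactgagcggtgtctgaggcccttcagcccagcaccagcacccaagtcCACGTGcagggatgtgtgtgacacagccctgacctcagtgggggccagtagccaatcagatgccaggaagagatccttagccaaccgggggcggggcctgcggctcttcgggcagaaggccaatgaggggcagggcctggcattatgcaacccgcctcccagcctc
Ciart held 3 matches and this Per1 promoter 1, and the second Per1 promoter held 0. The motif is its own reverse complement. Of the 14 clock genes 11 had a promoter in the table, and 3 of these held the motif, against 6.02% of all 32851 promoters. A gene counted when any of its promoters held the motif, while the share is of single promoters, so the measures are unlike.

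Lists of signalling and stress responses held few calls. Over all genes 4.37% were called with all arrays and 13.5% without replicate 2, and small counts near these shares are no trait of a list. Insulin signalling had none among 17 genes in either fit, with a median of -0.09 log2 with all arrays. The hypoxia response had none among 20 with all arrays, with a median of 0.07. Without replicate 2, Adm, the vessel-dilating peptide adrenomedullin, was called higher (0.93) and Pdk1, a brake on pyruvate oxidation, lower (-1.31). The unfolded protein response gave Atf3 alone among 19 with all arrays, and its chaperones Hspa5 (-0.11) and Hsp90b1 (-0.25) were not called. Without replicate 2 that list gave 3 rises, in Atf3 (2.48), Sel1l (0.63) and Ddit3 (0.56), and 1 fall, in Pdia4 (-0.85). Among 15 immediate early genes Atf3 and Fos were called with all arrays, and Atf3, Fos (1.60), Socs3 (0.92) and Junb (0.64) without replicate 2. Atf3 measured 254, 556 and 591 against 37.0, 76.8 and 22.1, and Fos 938, 1474 and 1664 against 404, 774 and 355, a rise of 1.36. Without high fat replicate 2 or 3 or low fat replicate 1 or 3, Atf3 alone was called. Adrenergic and cyclic AMP signalling had no call among 16 with all arrays, and the beta-3 receptor Adrb3 was at -0.99 (not called). Without replicate 2 the prostaglandin synthases Ptgs1 and Ptgs2 were called lower, in a fit that called 5.93% of all genes lower. Ptgs2 measured 0.08, 302 and -4.13 on high fat and 1325, 27.3 and 341 on low fat. The brown fat list of 7 gave Otop1, a proton channel, at 284, 429 and 455 against 187, 117 and 87.8, a rise of 1.30. The call of Otop1 was lost without replicate 3 of either group. The other 6 changes of the brown fat list were negative, and its median was -0.26 log2, or -0.33 without replicate 2. Its defining gene Ucp1, the uncoupling protein of brown fat, measured 3.12, 6.46 and 13.9 on high fat and 633, 24.1 and 12.7 on low fat, above the floor only in low fat replicate 1. The counts of these lists and the spread of each over the arrays are set out in the plot of lists by array.

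**Figure D4:**
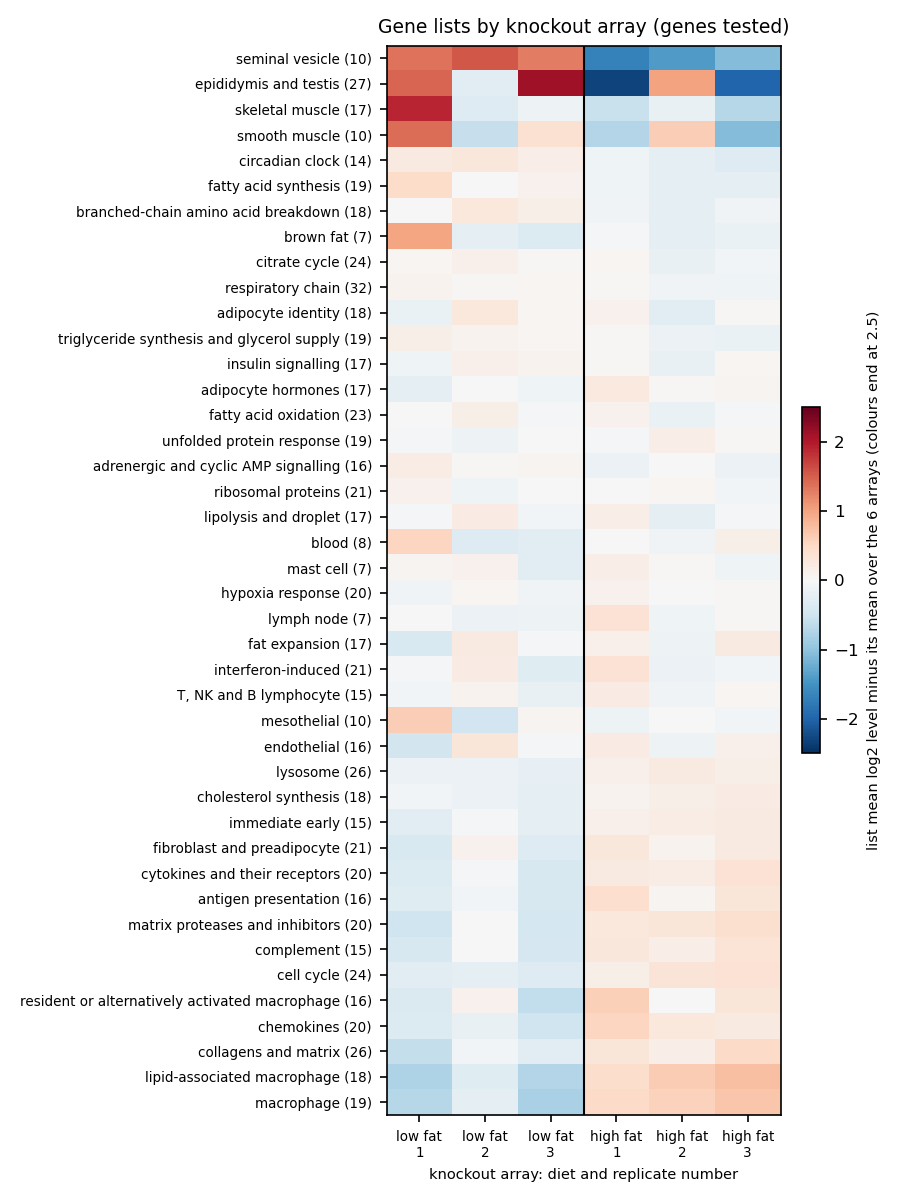
Mean log2 level of each gene list on each of the 6 Siah2 knockout arrays, minus the mean of that list over the 6 arrays (colour, in log2 units, ending at 2.5), with the number of genes tested in brackets. The Siah family list, of 3 genes, is not shown. Lists are ordered by the median change of their genes with all arrays. The macrophage and lipid-associated macrophage lists are red on all 3 high fat arrays and seminal vesicle genes on all 3 low fat arrays. Epididymis and testis genes are red on low fat replicates 1 and 3 and high fat replicate 2.

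Transcripts of the male tract made up the largest falls. Seminal vesicle secretory proteins, products of the gland that lies beside the fat pad, were lower on all high fat arrays: 5 of 10 fell, and 6 without replicate 2. Svs4 measured 4.43, -5.81 and 10.1 on high fat, all below the floor, and 1979, 2371 and 1926 on low fat, at least 74.7-fold lower. Svs5 measured 21.9, 17.7 and 33.3 against 2000, 2521 and 1774 and fell by 4.84 ± 0.25 on the log2 scale (limma adjusted p = 6.45e-06). Svs1 was at least 19.9-fold, Svs3b at least 10.9-fold and Svs2 at least 9.56-fold lower. Replicate 2 did not deviate in these genes. The epididymal defensin Spag11b was at least 4.46-fold lower, at -5.10, 9.28 and -10.9 against 82.2, 116 and 201. The calls of Svs2, Svs3b and Spag11b were lost without high fat replicate 1 or 3 or low fat replicate 1 or 3. Those of Svs2 and Spag11b were lost without high fat replicate 2, and that of Spag11b also without low fat replicate 2. Summed over the list, the seminal vesicle intensity was 69.8, 331 and 2244 on high fat and 6208, 7313 and 5774 on low fat. The value on high fat replicate 3 came mostly from Spink1, listed as Spink3, which the pancreas also makes, at 2162.

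Epididymis and testis genes did not follow the diet on replicate 2. Of 27 tested, 1 fell with all arrays and 16 without replicate 2, with medians of -2.31 and -3.88 log2. Spint4, a protease inhibitor of the epididymis, measured -5.79, 35882 and 14.0 on high fat and 38164, 3898 and 29460 on low fat. Crisp1, a sperm-coating secretory protein, measured -4.82, 22006 and 11.6 against 31241, 1954 and 17148. Adam7, a membrane protein of the epididymis, measured 25.8, 9727 and 16.3 against 14524, 1095 and 13958. High fat replicate 2 thus carried about as much of these transcripts as low fat replicates 1 and 3, and low fat replicate 2 carried less. Crisp1 was below the floor on high fat replicates 1 and 3, and Spag11b and Gpx5 were below it on all 3 high fat arrays. The summed intensity of the list was 2483, 111897 and 9422 on high fat and 139036, 14037 and 136841 on low fat. Without high fat replicate 2 alone 11 members were called.

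Skeletal muscle genes stood out on the array labelled Siah2KO_LFD replicate 1. Of 17 tested none was called with all arrays and 3 were lower without replicate 2. The mean log2 level of the list was 9.59 on that array against 7.37 and 7.56 on the other low fat arrays and 7.13, 7.49 and 6.97 on high fat. Atp2a1, the calcium pump of fast muscle, measured 2230 there and 106 and 81.0 on the other low fat arrays, and 39.4, 16.6 and 15.6 on high fat. Tnni2, a fast muscle troponin, measured 1019 against 42.2 and 35.7. S100a9, a neutrophil protein, was at 1132 on the same array and at 26.2 and 21.5 on the others of its group. High fat replicate 3 carried pancreatic transcripts: Clps, the pancreatic colipase, measured 10229 there and -0.96 and 0.61 on the other high fat arrays, and Ctrl, a pancreatic protease, 5447 against 22.9 and 19.8. Of 10 smooth muscle genes none was called with all arrays. Without replicate 2, Actg2 (-5.35), Myh11 (-3.46) and Des (-2.23) were lower and Synpo2 (0.85) was higher. Replicate 2 lay far from its group for Actg2, an actin of visceral smooth muscle, at 315, 7862 and 112 on high fat and 15112, 1055 and 6452 on low fat. Of 10 mesothelial genes none was called with all arrays, 6 changes were positive, and the median was 0.11 log2. Without replicate 2 the median was 0.18, while the keratins Krt18 (-2.79) and Krt8 (-2.39) were called lower. Krt8 measured 1120, 2020 and 195 on high fat and 3356, 357 and 2254 on low fat, so replicate 2 lay far from its group there too. Blood and lymph node lists gave no call in either fit. The part of these tissues in the falls of other genes was not tested beyond the covariate and the pools left out.

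**Figure D5:**
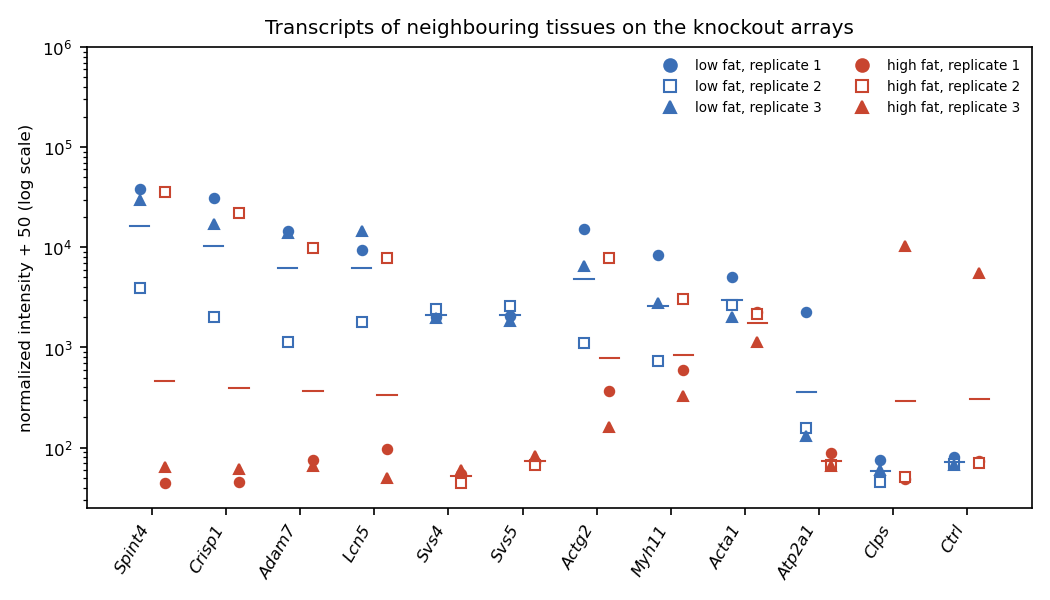
Normalized intensity plus 50 (log axis) of transcripts of the epididymis (Spint4, Crisp1, Adam7, Lcn5), seminal vesicle (Svs4, Svs5), smooth muscle (Actg2, Myh11), skeletal muscle (Acta1, Atp2a1) and pancreas (Clps, Ctrl) on the 6 Siah2 knockout arrays. For the epididymal genes and Actg2 high fat replicate 2 (red open square) lies far above its group and low fat replicate 2 (blue open square) is the lowest of its own, for Svs4 and Svs5 both lie with their groups, while Clps and Ctrl are high on high fat replicate 3 alone.

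Of the 1135 genes called only without replicate 2, the 10 largest falls and the 10 largest rises were named. The falls included secretory proteins and defensins known from the epididymis. High fat replicates 1 and 3 were both below the floor for 7 of them, so these falls are lower bounds: at least 1203-fold for Spint4, 830-fold for Crisp1, 555-fold for Serpina1f, 458-fold for Defb42, 451-fold for Spint5, 382-fold for Defb23 and 376-fold for Defb38. The others were Akr1b7 (-8.89), Spink8 (-8.29) and Spink11 (-7.79), with at least 1 of these 2 arrays above the floor. With all arrays the standard errors of the 10 ran from 1.68 to 2.25 log2, and none was called. Among the rises, Rnase2a, listed as Ear11, a ribonuclease of the eosinophil-associated family, measured 2136, 92.6 and 1010 on high fat and 69.3, 309 and 84.4 on low fat, a change of 3.59 without replicate 2 (limma adjusted p = 0.00163) and of 1.95 with all arrays (limma adjusted p = 0.269). Alox5ap, which activates leukotriene synthesis, measured 2974, 2260 and 2441 against 942, 1781 and 708, without overlap, and changed by 1.66 and 1.22 log2 (limma adjusted p = 0.0047 and 0.0503). Emp3 (2.44), Folr2 (1.82), Napa (1.78), Ccn5 (1.74), Sfrp5 (1.67), Ear12 (1.62) and Fcgr4 (1.49) had the same order of arrays in that low fat replicate 2 was the highest low fat pool. Sfrp5, a secreted inhibitor of Wnt signalling, measured 619, 314 and 511 against 74.2, 496 and 247, so replicate 2 was reversed between the groups. Cela1, a pancreatic elastase listed as Ela1, was at 1440, 1281 and 6772 against 462, 843 and 537, with the highest value on the array that carried the other pancreatic transcripts.

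Set beside wild type, the knockout response was tested for a difference gene by gene. In wild type mice 2665 genes (22.8%) were higher and 1964 (16.8%) lower on high fat. The epididymis and testis list had mean log2 levels of 12.96, 12.78 and 11.66 on wild type low fat arrays. On wild type high fat arrays they were 6.76, 6.41 and 6.38, so diet and epididymal transcripts cannot be told apart in these counts. Of the 415 genes higher in the knockout, 407 were also higher in wild type, and the comparisons share the estimate of the spread but no arrays. Of the 96 genes lower in the knockout, 33 were not called in either direction in wild type, and 4 of the 511 called genes had the opposite sign there. The difference between the 2 diet effects passed for 12 genes (0.103%) with all arrays, against 2393 at an unadjusted p under 0.05, and for 3 without replicate 2 (Defb45, Svs4 and Svs5). With 1 array left out, the count was 124 without low fat replicate 1, 41 without high fat replicate 3, 18 without low fat replicate 3, 7 without high fat replicate 2 and 5 without high fat replicate 1. Of the 12 genes, 6 were genes of the male tract whose low fat intensities were higher in wild type, where Svs5, for one, stood at 39783, 38491 and 19291 on low fat and at 9.38, 18.6 and 21.6 on high fat. Since most of their high fat arrays were below the floor, the fitted differences depend on the offset of 50 and are no bounds. The others include Vsig8, a cell surface immunoglobulin protein, at 38.0, 68.9 and 105 on high fat and 0.81, 6.04 and 5.80 on low fat in the knockout, and at 484, 563 and 422 against 1.77, 0.11 and -1.89 in wild type. Vsig8 was below the floor on all low fat arrays of both genotypes, so both rises are lower bounds, and the fitted difference of -2.31 ± 0.25 log2 (knockout minus wild type, limma adjusted p = 0.00522) depends on the offset. Kcnn4, a calcium-activated potassium channel of leukocytes, measured 73.7, 70.7 and 85.2 against 17.8, 44.1 and 21.1 in the knockout and 243, 226 and 253 against 21.6, 25.4 and 31.2 in wild type. For the macrophage list the median change was 1.08 log2 in the knockout and 1.69 in wild type, for collagens and matrix 0.65 and 1.12, and for the cell cycle 0.51 and 0.70. Of the members of these 3 lists, no difference between genotypes passed for a single gene, and the difference of the medians was not tested. The low fat arrays differed between genotypes in tissue content. Epididymis and testis genes summed to 409471, 366054 and 206069 in wild type and to 139036, 14037 and 136841 in the knockout. Adipocyte identity genes summed to 161906, 146678 and 160513 in wild type and to 184658, 228761 and 203486 in the knockout. The part of this content in the larger wild type medians was not tested.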

How the data were processed

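RNA pools of epididymal fat were measured on an Illumina mouse bead array of 25697 probes. The deposited values were linear intensities that the authors normalized in GenomeStudio per the submitters' processing notes. Of them 22.9% were below 0, as after background subtraction. The authors' deposited table of detection p-values names arrays by codes that no label ties to a sample, so it was used only over all 12 codes together. A further 20 signal columns matched no sample and were not used. Column medians lay between 33.3 and 33.6. Probes were named through Entrez ID (23788) or accession (685) in the RefSeq table for GRCm38.p6, and 1224 kept the file's symbol.

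Probes with detection p under 0.05 on at least 3 of 12 arrays were kept, and the brightest kept probe stood for its gene. log2(intensity + 50) was fitted with limma 3.58.1 in R 4.3.3 as 4 group means over 12 arrays, with Benjamini-Hochberg adjustment over 11705 genes and a threshold of 0.05, and fold changes of dim genes are understated on this scale. The step was tested on simulated data. The floor of 27.9 was the level exceeded by 52.1% of all values, the share of probes detected on the least sensitive array, and bounds ("at least") were taken against it. Replicate numbers did not pair the pools (r of same-numbered deviations -0.44, -0.81 and -0.36). Close paralogs, such as the Svs, Defb, Lyz or Ear genes, may share signal.

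Named were Siah2, the 15 largest non-overlapping rises and falls, the 10 largest rises and falls called only without replicate 2, up to 5 called members per list (otherwise 2 uncalled), the 10 genes that differed most clearly between genotypes, and the genes farthest out on the deviating arrays. Other list members were named after their values were seen. Members and lists were chosen with earlier results of these data known. Results of some genes, among them 1 that differed between genotypes, are not reported here. Alternatives were other offsets, filters, probe rules and normalization, array weights, a replicate block, a covariate of epididymal transcripts, and arrays left out.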

Additional observations from a re-analysis of the deposited data

Results flagged for a closer look

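The diet effect differed between knockout and wild type (limma interaction, adjusted p under 0.05) for the genes given here as knockout effect minus wild type effect on the log2 scale. For genes of the male tract Defb45 differed by 6.28, Spag11b by 6.20, Svs3b by 5.74, Svs1 by 4.89, Svs5 by 4.02 and Svs4 by 3.32. Defb45 was below the floor of 27.9 on all 6 knockout arrays, and Spag11b, Svs3b, Svs1 and Svs4 were below it on the 3 high fat knockout arrays, so these fitted differences depend on the offset of 50 and are no bounds. Wfdc1 differed by 1.83 and was not called in the knockout, where its change was -0.02. Vsig8, below the floor on all low fat arrays of both genotypes, differed by -2.31, the secreted factor Gdf3 by -1.68, Kcnn4 by -1.22 and Treml1 by -1.11. In the knockout Gdf3 was below the floor on all 6 arrays, and Treml1 changed by 0.07 log2. Without replicate 2 of both knockout groups, Defb45, Svs4 and Svs5 alone among these passed the test of the difference.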

How the results depend on the processing

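Counts are given as genes called, genes higher, genes lower and genes whose diet effect differed between genotypes, against 511, 415, 96 and 12. No named result changed sign while called. Array weights gave 1126, 841, 285 and 72. Leaving out replicate 2 of both knockout groups gave 1585, 891, 694 and 3. The replicate block gave 301, 255, 46 and 6, and whether the numbers pair the pools was not settled. The epididymal covariate gave 19, 12, 7 and 3. The 6 knockout arrays alone gave 134, 103 and 31, and 3, 1 and 2 with the replicate block; both have fewer arrays to estimate the spread. Detection on all 12 arrays gave 1 difference. With 1 array left out the counts ran from 138 to 845, 117 to 705, 18 to 140 and 5 to 124. As alternatives chosen after seeing the data, the model without low fat replicate 1 and both replicates 2 called 281 genes lower and 0 differences (limma; 1158 at an unadjusted p under 0.05), and the 4 knockout arrays of replicates 1 and 3 alone called 1056 genes, 512 of them lower. The cause of these shifts was not tested. Other offsets, no filter, cyclic loess, every probe and a trended robust fit kept each count within 1.5 times. Of 162 named genes, 91 of them called, 79 lost their call under the covariate, 53 with the 6 knockout arrays, 23 under the replicate block and 4 without replicate 2. The Siah2 difference stayed below 0, with exact permutation p between 0.0043 and 0.0216. Signals near the floor limit what can be said of dim genes.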
